A study of Homo sapiens with 12 samples.

Results

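The genes described here encode chaperones of the endoplasmic reticulum, the compartment in which secreted and membrane proteins fold. They were chosen by name: HSPA5, HYOU1, DNAJC3, DNAJB11, DNAJB9, HSP90B1, CANX, CALR, PDIA4 and PDIA3. Each gene was read from the probe set that carries its symbol alone and has the highest mean over 12 arrays, which left 9 of the 10 genes among 18417 genes in all. PDIA3, a disulfide isomerase that works with calnexin and calreticulin, has 2 probe sets that it shares with the pseudogene PDIA3P1, so no level is given for it.

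The cells are Calu-3, an established human airway epithelial line. They were transfected by lipid reagent with a small interfering RNA against SIN3A (n = 3 arrays), with a miR-138 mimic (n = 3), or with the control oligonucleotide NC1 (n = 6). All groups share the line, the lipid and the presence of a transfected oligonucleotide, and untransfected cells were not analysed here. The labels give neither dose nor time, and the extraction notes speak of primary cultures while every sample label names Calu-3. Arrays are labelled as biological replicates, with no mention of separate cultures. The p-values below therefore rest on array-to-array spread, and that spread may be technical. On bulk RNA, fewer cells of a kind and less RNA per cell cannot be told apart.

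In the endoplasmic reticulum, HSPA5 (BiP, an HSP70 chaperone) binds unfolded stretches of new proteins in cycles of ATP use. J-domain proteins such as DNAJC3, DNAJB11 and DNAJB9 bring clients to it and start its ATPase, and HYOU1 exchanges its nucleotide. HSP90B1 (GRP94) takes over a narrower set of clients, the lectins CANX (calnexin) and CALR (calreticulin) hold glycoproteins by their sugar chains, and PDIA4 forms and shuffles disulfide bonds. Many of these genes are induced by the unfolded protein response, through promoter elements named ERSE that the factors NF-Y, ATF6 and XBP1 recognise. CFTR, the chloride channel that the study's title is about, is a glycoprotein that folds in this compartment with help from calnexin among others.

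The mimic stands for mature miR-138, of which the 5p arm is shown because the labels do not name an arm. Capitals mark the seed, bases 2 to 8, which pairs with target RNAs. RefSeq places the same 23 bases at a pair of loci of GRCh38.p14, MIR138-1 (chr3:44114234-44114256, plus strand) and MIR138-2 (chr16:56858527-56858549, plus strand).
hsa-miR-138-5p: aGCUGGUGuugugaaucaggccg

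The promoter of HSPA5 is shown because HSPA5 is the gene that moved in opposite directions under the 2 treatments. The sequence is the RefSeq window of the 250 bases before the annotated start (GRCh38.p14, chr9:125241344-125241593, minus strand), and capitals mark a full match to ERSE, which is CCAAT and CCACG with 9 bases of any kind between them.
HSPA5 promoter: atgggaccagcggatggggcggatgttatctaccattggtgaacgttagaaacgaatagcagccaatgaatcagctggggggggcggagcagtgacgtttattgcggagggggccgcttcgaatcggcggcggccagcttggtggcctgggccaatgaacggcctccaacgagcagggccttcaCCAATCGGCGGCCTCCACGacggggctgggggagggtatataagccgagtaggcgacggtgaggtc

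Windows from 250 bases before to 50 after the start were searched on both strands for ERSE, for ERSE-II (ATTGG and CCACG with 1 base between them) and for the XBP1 element UPRE (TGACGTGG). All 9 measured genes had a window in RefSeq, and the first one listed was used for each gene. A full ERSE stood in 4 of the 9 (HSPA5, HSP90B1, CANX and CALR), against 22 of 27305 promoters of all genes (0.0806%). Genes of this kind are already known for regulation through ERSE, so these shares are no test of enrichment. HYOU1 alone among the 9 held ERSE-II, at a pair of places, 1 of which overlaps its UPRE. ERSE-II stood in 0.0549% and UPRE in 0.795% of all promoters. None of the 3 motifs matched in DNAJC3, DNAJB11, DNAJB9 or PDIA4, which says only that these letters are not in those windows. The matches are set side by side below with their flanks, each on the strand on which the element reads forward, and capitals mark the fixed letters of the element.
HSPA5 (chr9:125241386-125241414, minus strand): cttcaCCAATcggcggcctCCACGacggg
CANX (chr5:179698773-179698801, plus strand): cccggCCAATcttcacactCCACGaagaa
CALR (chr19:12938379-12938407, minus strand): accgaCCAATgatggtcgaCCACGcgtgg
HSP90B1, upstream match (chr12:103930211-103930239, plus strand): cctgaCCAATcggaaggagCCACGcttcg
HSP90B1, downstream match (chr12:103930316-103930344, minus strand): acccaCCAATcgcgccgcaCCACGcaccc
HYOU1, ERSE-II upstream (chr11:119057371-119057399, plus strand): cggcctgggATTGGaCCACGtcacggggc
HYOU1, ERSE-II downstream (chr11:119057265-119057293, plus strand): cgcgtactcATTGGaCCACGtcccaggcc
The HSPA5 element lies 66 to 48 bases before its start, and that of CANX 151 to 133 bases before the start used here, which is 1 of 4 listed for CANX. The downstream HSP90B1 element, the CALR element and the HYOU1 elements lie on the strand opposite to their gene. The matches describe sequence only, and binding was not measured.

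All levels are log2 values as the authors deposited them, with array medians of 5.09 to 5.16 over 33297 probe sets. Correlations between arrays across genes were 0.967 to 0.995, and genes are no independent replicates of one another. Within NC1 the arrays differ by number: replicates 4 to 6 against 1 to 3 gave 1850 called genes (1149 without NC1 4, 1062 without NC1 5), so treated arrays are also set against each part. SIN3A itself fell to 54.2% of NC1 with the siRNA (limma adjusted p = 0.0111) and to 56.1% with the mimic (0.0304), a mimic call that held in 5 of 12 fits with 1 array left out. CFTR fell by 1.34 on the log2 scale with the siRNA (limma adjusted p = 0.000203) and was at -0.39 with the mimic (0.244). From NC1 4 to 6 the mimic difference of CFTR was called (-0.57, limma adjusted p = 0.0188), and from NC1 1 to 3 it was not (-0.22, 0.355). Epithelial markers had mean levels of 5.71 to 10.8 with the siRNA, 5.83 to 10.6 with the mimic and 5.84 to 10.7 with NC1. Of these 8 epithelial markers, ELF3 was called lower with the siRNA from NC1 4 to 6 (6.28% of all genes). KRT8 was called higher in NC1 4 to 6 than in 1 to 3 (6.86%), and no other epithelial call was made. Fibroblast, leukocyte and endothelial markers had group means of at most 6.48, and 0 of these 19 markers were called in any of the 8 comparisons. A gene was called at a Benjamini-Hochberg adjusted p under 0.05 over all 18417 genes in limma, and rose and fell refer to called genes. Differences are log2 differences with the standard error (SE) of the fit.

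**Figure D1:**
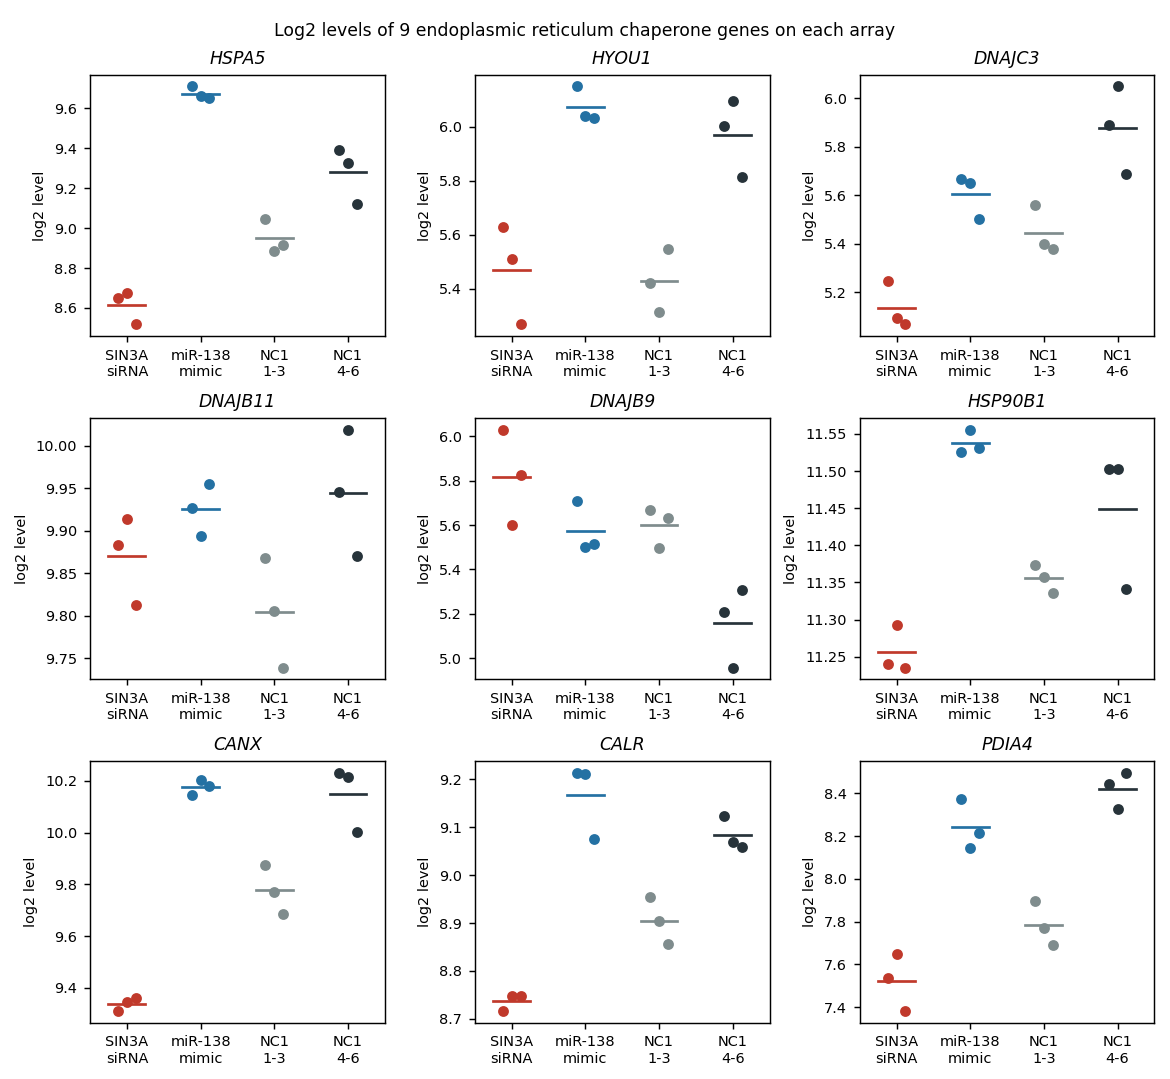
Log2 level of each of the 9 chaperone genes on each array, by group. Points are arrays, bars are group means, and each panel has its own vertical range. For HSPA5 all siRNA arrays lie below and all mimic arrays above the NC1 arrays. For CANX, CALR, HSP90B1, DNAJC3 and PDIA4 all siRNA arrays lie below the NC1 arrays.

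With the SIN3A siRNA, HSPA5, its co-chaperone DNAJC3 and the lectin CANX fell against all NC1 arrays, and 0 of the 9 genes rose. With 1 array left out, the call held in 12 of 12 fits for CANX, 9 for HSPA5 and 4 for DNAJC3. Over all genes, 1.66% were called lower and 2.35% higher in this comparison. The median difference of the 9 genes was -0.26, beside -0.01 over all genes, and 8 of the 9 differences were below 0. The siRNA arrays lay below every NC1 array for 6 of the 9 genes, where 3.53% of all genes did so. DNAJC3 (mean level 5.52), HYOU1 (5.73) and DNAJB9 (5.54) were dim, within the range of the fibroblast, leukocyte and endothelial markers (at most 6.48). The group means of SIN3A with the siRNA (6.03) and with the mimic (6.08) lay within that range too. How much of their signal is background was not tested. The miR-138 mimic raised HSPA5 and changed no other of the 9 by the test. Over all genes, 0.641% were called higher with the mimic and 0.402% lower. The median of the 9 genes with the mimic was 0.17, beside -0.01 over all genes, with 8 of 9 differences above 0. Between the parts of the control the median was larger, 0.33 in NC1 4 to 6 against 1 to 3, also with 8 above 0. The mimic median was 0.26 from NC1 1 to 3 (8 above 0) and 0.08 from NC1 4 to 6 (6 above 0). The siRNA median was -0.17 from NC1 1 to 3 (6 below 0) and -0.50 from NC1 4 to 6 (8 below 0). Both treatments share the NC1 arrays, so their differences from NC1 are not independent of each other.

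HSPA5, the HSP70 at the centre of this system, was at 8.65, 8.67 and 8.52 on the siRNA arrays and at 9.71, 9.66 and 9.65 on the mimic arrays. The NC1 arrays read 9.04, 8.88, 8.92, 9.39, 9.33 and 9.12. No siRNA array and no mimic array overlapped the NC1 arrays, and NC1 4 to 6 were all above NC1 1 to 3. HSPA5 fell to 70.7% of NC1 with the siRNA (a difference of -0.50 on the log2 scale, SE 0.11, limma adjusted p = 0.0194) and was 1.47-fold higher with the mimic (0.56, SE 0.11, limma adjusted p = 0.0233). Against each part of the control it was also called in the same direction. With the siRNA it was at -0.33 (SE 0.093, limma adjusted p = 0.0448) from NC1 1 to 3 and -0.67 (limma adjusted p = 0.000166) from NC1 4 to 6. With the mimic it was at 0.72 (limma adjusted p = 0.000138) from NC1 1 to 3 and 0.39 (limma adjusted p = 0.0236) from NC1 4 to 6. With 1 array left out, the siRNA call against NC1 1 to 3 held in 1 of 12 fits, that without NC1 6 (limma adjusted p 0.0273 to 0.165 over the 12). The mimic call against NC1 4 to 6 held in 7 of 12 and was lost without NC1 5, NC1 6 or any mimic array (0.0190 to 0.108 over the 12). Against all NC1 arrays, the siRNA call was lost without any siRNA array (limma adjusted p 0.0681, 0.0668 and 0.115 without array 1, 2 and 3), and the mimic call without any mimic array (0.139, 0.116 and 0.106). Fitted on the arrays of the 2 groups alone, neither was called (limma adjusted p = 0.0550 with the siRNA and 0.0699 with the mimic).

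HYOU1, the exchange factor of HSPA5, read 5.63, 5.51 and 5.27 with the siRNA, 6.15, 6.04 and 6.03 with the mimic, and 5.42, 5.31, 5.55, 6.00, 6.09 and 5.81 with NC1. The mimic arrays sat with NC1 4 to 6 and the siRNA arrays with NC1 1 to 3. It did not pass against all NC1 arrays (siRNA difference -0.23, SE 0.15, limma adjusted p = 0.520, and mimic difference 0.37, SE 0.15, limma adjusted p = 0.352). Its direction with the siRNA depended on the part of the control, 0.04 from NC1 1 to 3 and -0.50 from NC1 4 to 6 (limma adjusted p = 0.889 and 0.00542). With the mimic it was at 0.65 from NC1 1 to 3 and 0.10 from NC1 4 to 6 (limma adjusted p = 0.00129 and 0.857).

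Among the J-domain proteins, DNAJC3, known as p58IPK, read 5.25, 5.09 and 5.07 with the siRNA, 5.67, 5.65 and 5.50 with the mimic, and 5.56, 5.40, 5.38, 5.89, 6.05 and 5.69 with NC1. The siRNA arrays were below all NC1 arrays, while the mimic arrays lay within the NC1 range. DNAJC3 fell to 69.5% of NC1 with the siRNA (-0.53, SE 0.13, limma adjusted p = 0.0384) and lay at -0.05 in mimic arrays (SE 0.13, limma adjusted p = 0.935). The mimic difference turned sign with the control part, at 0.16 from NC1 1 to 3 (limma adjusted p = 0.399) and -0.27 from NC1 4 to 6 (0.240), where the arrays did not overlap. Against NC1 1 to 3 alone its siRNA difference of -0.31 was not called (limma adjusted p = 0.0968), and against NC1 4 to 6 it was -0.74 (0.000170). The call against all NC1 arrays was lost without any siRNA array, any mimic array, NC1 4 or NC1 6 (limma adjusted p 0.0562 to 0.177).

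DNAJB9 (ERdj4), a J-domain protein linked to the sensor IRE1 and to degradation, differed in sign from the others with the siRNA, though without a call against all NC1 arrays. It read 6.03, 5.60 and 5.82 with the siRNA, 5.71, 5.50 and 5.51 with the mimic, and 5.67, 5.50, 5.63, 5.21, 4.96 and 5.31 with NC1. It is the only one of the 9 genes with a siRNA difference above 0 from all NC1 arrays (0.44, SE 0.14, limma adjusted p = 0.116) and the only one called lower in NC1 4 to 6 than in NC1 1 to 3. From NC1 4 to 6 its siRNA difference was 0.66 (limma adjusted p = 0.00138), and from NC1 1 to 3 it was 0.22 (0.340). From NC1 1 to 3 the siRNA differences of HYOU1 (0.04) and DNAJB11 (0.07) were above 0 as well. With the mimic DNAJB9 was at 0.20 from all NC1 arrays (SE 0.14, limma adjusted p = 0.696), at -0.03 from NC1 1 to 3 and at 0.42 from NC1 4 to 6 (limma adjusted p = 0.935 and 0.0716).

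DNAJB11 (ERdj3), which binds clients before HSPA5 does, varied least of the 9 genes, over a range of 0.28 on the 12 arrays. Its level was 9.87 ± 0.052 with the siRNA (SD, n = 3), 9.93 ± 0.031 with the mimic (SD, n = 3) and 9.87 ± 0.099 with NC1 (SD, n = 6). The 95% confidence interval of its difference from NC1 was -0.17 to 0.16 with the siRNA and -0.11 to 0.21 with the mimic, and it was not called in any comparison.

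HSP90B1, the HSP90 of this compartment, read 11.24, 11.29 and 11.24 with the siRNA, 11.53, 11.56 and 11.53 with the mimic, and 11.37, 11.36, 11.34, 11.50, 11.50 and 11.34 with NC1. As with HSPA5, the siRNA arrays lay below and the mimic arrays above all NC1 arrays, but the distances were small and neither difference was called. They were -0.15 for the siRNA (SE 0.070, limma adjusted p = 0.323) and 0.13 for the mimic (SE 0.070, limma adjusted p = 0.506). The mimic arrays lay above all NC1 arrays for 2 of the 9 genes, HSPA5 and HSP90B1, where 3.89% of all genes did so.

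CANX, the membrane lectin, had the largest fall of the 9 genes with the siRNA. It read 9.31, 9.34 and 9.36 with the siRNA, 10.15, 10.20 and 10.18 with the mimic, and 9.87, 9.77, 9.69, 10.23, 10.21 and 10.001 with NC1. The siRNA arrays lay closely together and below all NC1 arrays, and the mimic arrays lay among NC1 4 to 6. CANX fell to 64.9% of NC1 with the siRNA (-0.62, SE 0.11, limma adjusted p = 0.00796), a call that held whichever array was left out (limma adjusted p 0.00208 to 0.0475). It was also called against NC1 1 to 3 (-0.44, limma adjusted p = 0.00888) and against NC1 4 to 6 (-0.81, limma adjusted p = 1.72e-05). With the mimic CANX was at 0.21 from all NC1 arrays (SE 0.11, limma adjusted p = 0.512). The mimic difference was 0.40 from NC1 1 to 3 (limma adjusted p = 0.00926) and 0.03 from NC1 4 to 6 (0.974).

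CALR, the soluble lectin, read 8.72, 8.75 and 8.75 with the siRNA, 9.21, 9.21 and 9.08 with the mimic, and 8.95, 8.90, 8.86, 9.12, 9.07 and 9.06 with NC1. The siRNA arrays again lay below all NC1 arrays, but the difference was not called (-0.26, SE 0.078, limma adjusted p = 0.0878). Of 12 fits with 1 array left out, it was called in 1, that without NC1 3 (limma adjusted p = 0.0392). It was also called after a second quantile normalization (0.0412). The siRNA difference was -0.17 from NC1 1 to 3 (limma adjusted p = 0.271) and -0.35 from NC1 4 to 6 (0.00908). With the mimic CALR was at 0.17 (SE 0.078, limma adjusted p = 0.423).

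PDIA4 (ERp72), the measured disulfide isomerase, differed most between the parts of the control. It read 7.53, 7.65 and 7.38 with the siRNA, 8.38, 8.14 and 8.22 with the mimic, and 7.90, 7.77, 7.69, 8.44, 8.33 and 8.50 with NC1. The siRNA arrays lay below both parts. Against all NC1 arrays the siRNA difference of -0.58 was large but its SE was too (0.17, limma adjusted p = 0.0699), and it was called without NC1 2 or NC1 3 (0.0423 and 0.0209). It was -0.26 from NC1 1 to 3 (limma adjusted p = 0.148) and -0.90 from NC1 4 to 6 (1.83e-05). The mimic difference turned sign with the part, 0.46 from NC1 1 to 3 (limma adjusted p = 0.00798) and -0.18 from NC1 4 to 6 (0.554).

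**Figure D2:**
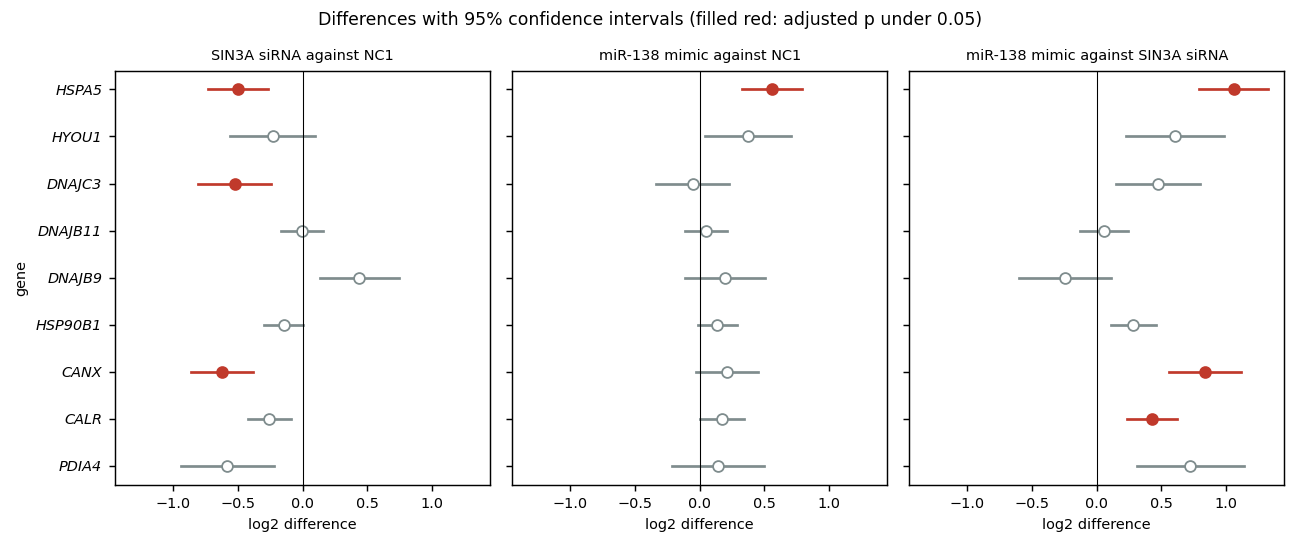
Log2 difference (horizontal axis) of each chaperone gene in 3 comparisons, with 95% confidence intervals from limma. Filled red points were called. HSPA5 lies at -0.50 with the siRNA, at 0.56 with the mimic and at 1.06 between the treatments.

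Set directly against the siRNA arrays, the mimic arrays had more chaperone message. HSPA5, CANX and CALR were higher with the mimic and 0 of the 9 were lower, where 0.679% of all genes were called higher and 0.890% lower. HSPA5 was 2.08-fold higher with the mimic (log2 difference 1.06, SE 0.13, limma adjusted p = 0.00112), CANX 1.79-fold (0.84, SE 0.13, limma adjusted p = 0.00639) and CALR 1.35-fold (0.43, SE 0.090, limma adjusted p = 0.0292). The mimic arrays lay above all siRNA arrays for 7 of the 9 genes, where 13.3% of all genes did so. PDIA4 (0.72, SE 0.19, limma adjusted p = 0.0775), HYOU1 (0.61, SE 0.18, limma adjusted p = 0.107), HSP90B1 (0.28, SE 0.081, limma adjusted p = 0.0983) and DNAJC3 (0.47, SE 0.15, limma adjusted p = 0.148) were not called. DNAJB9 was at -0.24 (SE 0.17, limma adjusted p = 0.597). SIN3A differed by 0.05 between the same arrays (95% confidence interval -0.37 to 0.47). The comparison was also fitted with NC1 1 to 3 and the siRNA arrays as 1 set and NC1 4 to 6 and the mimic arrays as another. HSPA5 was then at 0.73 (SE 0.13, limma adjusted p = 0.00677), while CANX (0.46, limma adjusted p = 0.0700) and CALR (0.25, 0.361) were no longer called. SIN3A turned to -0.53 in that fit (limma adjusted p = 0.159), since it was at -1.13 with the mimic from NC1 4 to 6 and at -0.59 with the siRNA from NC1 1 to 3. The labels do not state such sets. The CALR call was also lost without any of the 3 siRNA or 3 mimic arrays (limma adjusted p 0.0629 to 0.125).

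The control arrays themselves differed in chaperone message. In NC1 4 to 6 HSPA5, HYOU1, DNAJC3, CANX and PDIA4 were higher than in NC1 1 to 3 and DNAJB9 was lower, so 6 of the 9 genes were called where 10% of all genes were. Over all genes 6.86% were called higher and 3.18% lower. The differences were 0.635 for PDIA4 (SE 0.099, limma adjusted p = 0.000526), 0.54 for HYOU1 (SE 0.11), 0.43 for DNAJC3 (SE 0.10), 0.37 for CANX (SE 0.089) and 0.33 for HSPA5 (SE 0.093). DNAJB9 was at -0.44 (SE 0.12, limma adjusted p = 0.0250). SIN3A was higher in NC1 4 to 6 as well (0.58, SE 0.12, limma adjusted p = 0.00574). Of these calls 3 were left without NC1 4 and 2 without NC1 5. For the 5 of these 6 genes other than HSPA5, the difference within the control was larger in size than that of the mimic from all NC1 arrays. What sets the parts of the control apart is not given in the labels, and its part in the treated differences was not tested.

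Read against each part alone, the number of chaperone genes called depended on the part. With the siRNA 2 were lower from NC1 1 to 3 (2.04% of all genes were called lower and 3.66% higher), and 6 were lower and 1 higher from NC1 4 to 6 (6.28% and 5.16%). With the mimic 4 were higher and 0 lower from NC1 1 to 3 (6.01% and 2.54%), and 1 was higher and 0 lower from NC1 4 to 6 (1.59% and 1.89%). HSPA5 and CANX with the siRNA, and HSPA5 with the mimic, were called against both parts. Of these, the CANX calls held against each part whichever array was left out, and the HSPA5 calls against the nearer part did not. The siRNA arrays lay below NC1 1 to 3, the lower part for most of these genes, for 6 of the 9 (9.04% of all genes).

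**Figure D3:**
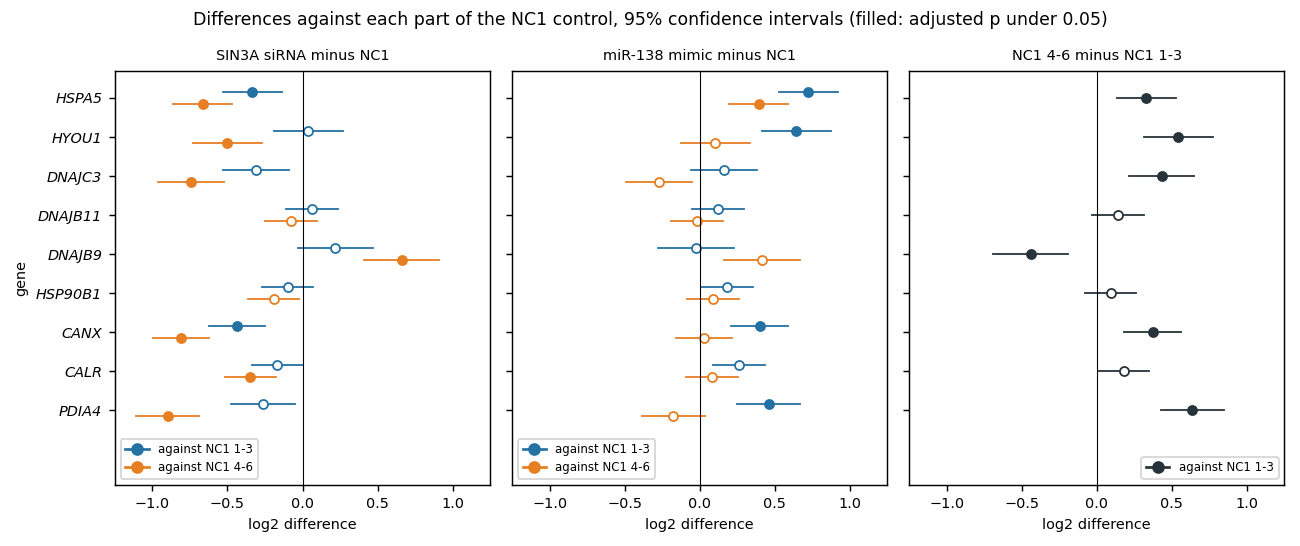
Log2 differences of the 9 genes from NC1 1 to 3 (blue) and from NC1 4 to 6 (orange) with the siRNA and with the mimic, and between the parts of the control (black), with 95% confidence intervals. Filled points were called. HSPA5 is filled in all 5 cases. The mimic difference of PDIA4 is 0.46 from 1 part and -0.18 from the other.

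The 9 genes differed in how far they varied over the 12 arrays. Likeness was measured as the root mean square (RMS) difference between log2 levels centred on each gene's own mean. This difference grows with an unlike size of variation as well as with an unlike shape, and does not tell them apart. HSPA5 itself varied by an RMS of 0.40 about its mean. Of all genes, SLC26A2 (0.12), APOL1 (0.14), SNORA21 (0.14), CANX (0.15) and TCP11L1 (0.16) had the profiles closest to that of HSPA5. For CANX, which varied by 0.35 about its mean, they were G3BP1 (0.071), ATP2B1 (0.087), MBOAT1 (0.097), MMP7 (0.098) and TAF9B (0.10). Among the chaperones HYOU1 followed CANX in likeness to HSPA5 (0.20), then PDIA4 (0.23), CALR (0.24) and DNAJC3 (0.27). HSP90B1 (0.29) and DNAJB11 (0.365) came next, and DNAJB9 was farthest (0.58). CALR, HSP90B1 and DNAJB11 varied less about their own means than HSPA5 (RMS 0.17, 0.11 and 0.072). Their distances from HSPA5 therefore do not show another shape.

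The 4 chaperone genes with a full ERSE were at -0.50 (HSPA5), -0.62 (CANX), -0.26 (CALR) and -0.15 (HSP90B1) with the siRNA, of which the first and second were called. With the mimic they were at 0.56, 0.21, 0.17 and 0.13 in the same order, of which HSPA5 was called. DNAJC3, which fell, and PDIA4 (-0.58, not called) have no match in the window searched, which is 1 of 2 listed for PDIA4. Of the 22 genes with a full ERSE 17 were measured, and the 13 outside the chaperones had a median of 0.03 with the siRNA and 0.02 with the mimic, with 0 of 13 called in either comparison by limma. Their siRNA differences were above 0 in 8 and below 0 in 5. From NC1 4 to 6, SERP1 and XBP1 were called higher with the siRNA (5.16% of all genes), and SERP1 and ERO1B with the mimic (1.59%). From NC1 1 to 3, SERP1 was called lower with the mimic (2.54% of all genes). With the siRNA 0 of 13 were called there (3.66% of all genes higher and 2.04% lower).

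Of 88 measured genes in 6 further lists of the endoplasmic reticulum, 3 fell and 6 rose with the siRNA against all NC1 arrays, where 1.66% of all genes were called lower and 2.35% higher. Whether these lists differ from the chaperones was not tested. Of 20 measured genes of other disulfide isomerases and redox partners 2 fell and 1 rose with the siRNA (median -0.09). DNAJC10 (ERdj5), a disulfide reductase with a J domain, fell by 0.85 on the log2 scale (SE 0.175, limma adjusted p = 0.0153). Its level was 7.40 ± 0.044 with the siRNA (SD, n = 3), 8.40 ± 0.076 with the mimic (SD, n = 3) and 8.24 ± 0.39 with NC1 (SD, n = 6). TMX1, a membrane-bound isomerase, fell by 0.50 (SE 0.083, limma adjusted p = 0.00548), and PDIA5 rose (0.45, SE 0.12, limma adjusted p = 0.0438). Between the treatments, DNAJC10 and TMX1 were higher in mimic arrays (1.00 and 0.41, limma adjusted p = 0.0269 and 0.0489). Of 17 other HSP70 and J-domain partners 2 rose with the siRNA and 0 fell (median 0.04): SDF2, a partner of DNAJB11 (0.50, SE 0.099, limma adjusted p = 0.0132), and the J-domain gene DNAJC1 (0.44, SE 0.11, limma adjusted p = 0.0417). SDF2 was at 0.30 with the mimic (limma adjusted p = 0.215) and differed by -0.20 between the treatments (0.499).

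In the lectin cycle and glycan trimming, ERLEC1, a lectin of degradation, was the only one of 13 genes called with the siRNA (0.445, SE 0.11, limma adjusted p = 0.0321, list median -0.05). Of 14 prolyl isomerases and calcium-binding proteins 1 fell and 1 rose (median 0.01). RCN1, a calcium-binding protein, fell to 8.26 ± 0.22 with the siRNA (SD, n = 3) and was at 9.34 ± 0.032 with the mimic (SD, n = 3), against 9.33 ± 0.14 with NC1 (SD, n = 6), a siRNA difference of -1.07 (SE 0.10, limma adjusted p = 0.000107). The RCN1 difference was -1.07 from NC1 1 to 3 and -1.08 from NC1 4 to 6. The prolyl isomerase FKBP14 rose (0.60, SE 0.11, limma adjusted p = 0.0111). With the mimic FKBP14 was at 0.41 from all NC1 arrays (limma adjusted p = 0.124) and was called from NC1 1 to 3 (0.53, 0.00871). Between the treatments FKBP14 differed by -0.18 (limma adjusted p = 0.627). Of 8 genes of KDEL receptors and retrieval RER1, a retrieval receptor, rose (0.50, SE 0.099, limma adjusted p = 0.0132, list median 0.15).

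PDIA5 (0.27, limma adjusted p = 0.131), DNAJC1 (0.42, 0.0735) and ERLEC1 (0.43, 0.0514) were not called with the siRNA against NC1 1 to 3. TMX1, DNAJC10, RCN1, SDF2, FKBP14 and RER1 were called against both parts. With NC1, the means of PDIA5 (5.905), FKBP14 (6.06) and ERLEC1 (6.13) lay within the range of the fibroblast, leukocyte and endothelial markers. How much of that signal is background was not tested.

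The list of the unfolded protein response holds sensors and transcription factors, among them ERN1, EIF2AK3, ATF6 and XBP1. It also holds proteases such as MBTPS1 and targets of the response such as HERPUD1 and TRIB3. Against all NC1 arrays, 0 of its 16 genes were called with the siRNA (median 0.07) and 0 of 16 with the mimic (median 0.03) by limma. Set against the second part of the control (NC1 4 to 6), 5 were higher and 1 lower with the siRNA (5.16% and 6.28% of all genes), and 2 were higher with the mimic (1.59%). Those called with the siRNA were XBP1, DDIT3, MBTPS2, HERPUD1, PPP1R15A and TRIB3, and those with the mimic HERPUD1 and PPP1R15A. Set against the first part, 0 were called with the siRNA (3.66% of all genes higher and 2.04% lower). With the mimic 1 was lower there (2.54% of all genes). Over all 6 lists, 0 of 88 genes were called with the mimic against all NC1 arrays, and the parts of the control again gave other counts. With the mimic, 13 were higher and 6 lower from NC1 1 to 3 (6.01% and 2.54% of all genes), and 5 were higher and 2 lower from NC1 4 to 6 (1.59% and 1.89%). With the siRNA, 6 were higher and 6 lower from NC1 1 to 3 (3.66% and 2.04%), and 16 were higher and 14 lower from NC1 4 to 6 (5.16% and 6.28%). Between the parts themselves, 14 were higher and 11 lower in NC1 4 to 6 (6.86% and 3.18% of all genes).

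**Figure D4:**
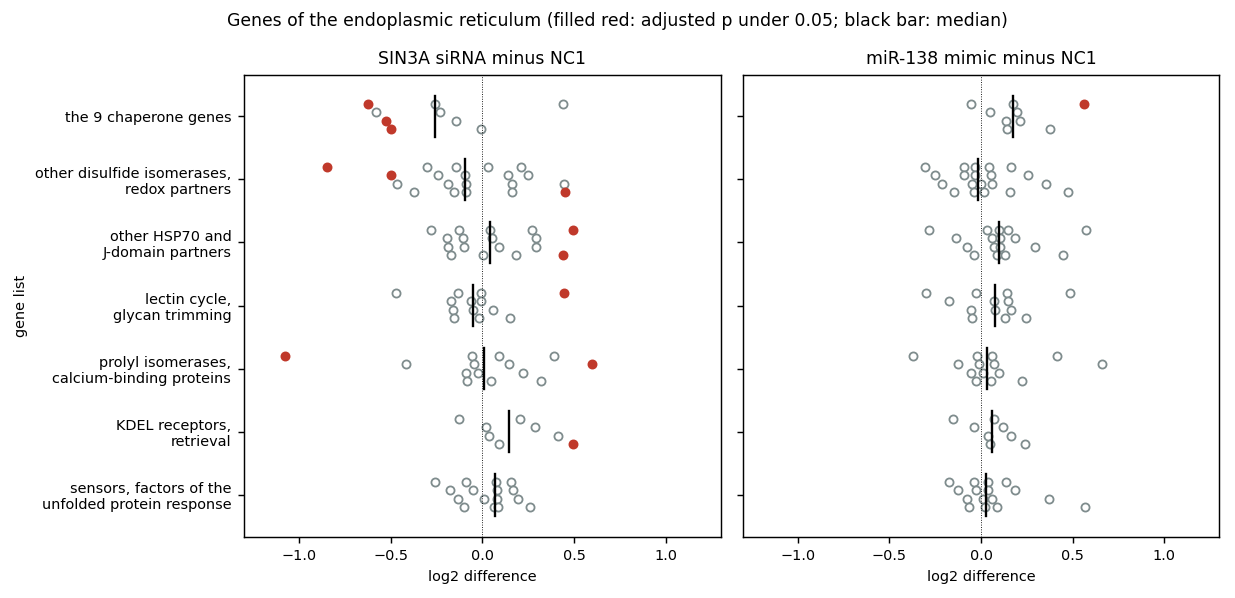
Log2 difference from NC1 (horizontal axis) of the 9 chaperone genes and of 6 further gene lists of the endoplasmic reticulum, with the siRNA (left) and the mimic (right). Points are genes, filled red where called, and black bars are list medians. With the siRNA the bar of the chaperones lies at -0.26 and the bars of the other lists between -0.09 and 0.15. With the mimic HSPA5 is the only filled point.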

How the data were processed

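Microarray levels of 12 samples were used. The deposited values are log2 levels, 1 for each probe set on each array. The authors used RMA and Partek 6.3, per the submitters' processing notes, without a statement of which step each did, and the log2 scale was read from the values. No scanner files were used. Of 33297 probe sets 19460 carried 1 symbol, and the probe set with the highest mean stood for each of 18417 genes. The platform's annotation gave the names. In limma 3.58.1 under R 4.3.3, 1 fit had 3 group means (9 residual degrees of freedom) and gave the comparisons with all NC1 arrays and between the treatments. Another had 4 means with NC1 1 to 3 and 4 to 6 apart (8 residual degrees of freedom). The pipeline was tested on simulated data. The number of arrays limits the precision: the median SE of a difference from NC1 was 0.10.

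All 9 measured chaperone genes, SIN3A, up to 4 called genes per list with the smallest adjusted p, and the 5 closest profiles to HSPA5 and CANX were named. Genes and lists were chosen with earlier results of these data known. Promoter and microRNA sequences are from RefSeq tables (GRCh38.p14). Alternatives varied the probe set, normalization, dim genes (mean log2 of at least 5, leaving 10993 genes), arrays fitted, variance trend, replicate or set blocks, and each array left out.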

Additional observations from a re-analysis of the deposited data

How the results depend on the processing

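Counts of the 9 chaperone genes called moved as follows. With the siRNA against all NC1 arrays 3 were called, 5 after a second quantile normalization and 1 when only the arrays of the 2 groups were fitted. With the mimic 1 was called, and 0 in the fit of its own 2 groups. Between the treatments 3 were called, 7 in the fit of those 2 groups and 1 with the array set as a block. In fits of the compared arrays alone, 1 was called for the siRNA against NC1 1 to 3 (2 in the full fit) and 2 for NC1 4 to 6 against 1 to 3 (6 in the full fit). For the mimic against NC1 4 to 6, 2 were called among genes of mean log2 at least 5 (1 over all genes). Leaving out single arrays gave 1 to 5 (siRNA) and 0 to 1 (mimic) against NC1, 2 to 4 between treatments, 1 to 2 for the siRNA against NC1 1 to 3, 0 to 1 for the mimic against NC1 4 to 6, and 2 to 6 between the parts of the control. The remaining counts stayed within 1.5 times.

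Replicate numbers are shared between groups, but same-numbered arrays did not deviate together (9 pairs, r of -0.10 to 0.029), so the number was not used as a pairing. The check covered arrays numbered 1 to 3 only. A pairing of NC1 4 to 6 with mimic arrays was therefore not tested. With the replicate block, which drops NC1 4 to 6 from the contrast, 1 was called with the siRNA against all NC1 arrays and 1 against NC1 1 to 3, 4 with the mimic and 6 between treatments.

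In the comparisons with all NC1 arrays and between treatments, signs turned only for differences that were not called on either side, all small except that of SIN3A between treatments, and beyond the dropped arrays the cause was not tested. HYOU1 with the siRNA was at 0.040 with the replicate block and with the array set as a block. DNAJB11 with the siRNA was at 0.066 under both blocks and from -0.032 to 0.024 when single arrays were left out, and with the mimic at -0.020 under the set block. With the mimic DNAJC3 was at 0.16 with the replicate block and from -0.11 to 0.024 when single arrays were left out, DNAJB9 at -0.025 with the replicate block, and PDIA4 at -0.18 with the set as a block. Between treatments, the set as a block put DNAJB11 at -0.085, DNAJB9 at 0.20 and SIN3A at -0.53, and SIN3A lay from -0.036 to 0.13 when single arrays were left out. Over all genes, 739 were called with the siRNA, 192 with the mimic, 289 between treatments and 1850 between the parts of the control. Fits of the compared arrays alone called 357, 92, 1474 and 973 in that order, and leaving out single arrays gave 165 to 1033, 39 to 264, 58 to 568 and 1062 to 2382. The set as a block gave 642 for the mimic. The replicate block gave 1281 for the mimic and 830 between treatments.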
